A study of Mus musculus with 28 samples.

Results

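The regions described here were narrow domains of trimethylated histone H3 lysine 9 (H3K9me3) that lay over gene promoters in wild-type mouse embryonic stem cells (mESCs). A member was any autosomal domain of the WT H3K9me3 list that was under 25000 bp wide and held the transcription start site (TSS) of a protein-coding gene in mm9 (GENCODE vM1), with 1 TSS taken for each gene. This rule found 914 of the 53745 WT domains, which lay over 963 of 21418 autosomal protein-coding TSSs (4.50%). Members were thus chosen by their presence and width in the WT list, and neither is a result. The H3K4me3, H3K27Ac and Oct4 lists, the Spen KO lists and the DNA sequence were not used in the choice.

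The series compared HATX WT cells, a haploid mESC line of mixed genomic background, with Spen KO clone 2 of the same line by ChIP-seq for H3K9me3, H3K4me3, H3K27Ac and Oct4. Both genotypes carried an X-linked Xist transgene that doxycycline induces, and both were grown in serum and LIF. In the knockout most of Spen, which encodes an RNA-binding co-repressor, was deleted. The 28 samples comprised 16 ChIP libraries, 2 for each genotype and antibody, and 12 inputs. The study describes the 2 libraries as technical replicates. The knockout was 1 clone, so effects of the clone and of the genotype cannot be told apart.

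Each histone mark was given as 1 list for each genotype made from both libraries. The H3K4me3 and H3K27Ac lists also gave a value for each library, but only at peaks kept from both. Presence of a domain or peak therefore could not be compared between libraries, the library values are given without a test, and read depth was unknown. Intervals in brackets are 95% Wilson intervals on shares of TSSs or domains, and they cover counting error only. Neighbouring TSSs can share a domain, so they are not independent. The Spen KO list held more and narrower H3K9me3 domains than the WT list (70268 against 53745, with median widths of 3800 and 5400 bp). The autosomes also differed between the lists. Bases covered in Spen KO were 62.1% to 67.4% of those covered in WT on chromosomes 10, 12, 16 and 17, 77.9% on chromosome 4 and 136% on chromosome 19, but 85.7% to 120.1% on the other 13. As a check of cell identity, 8 of 9 mESC marker genes had both H3K4me3 and H3K27Ac at their TSS in each genotype, and none was under H3K9me3. Of the markers of endoderm, mesoderm, neural cells and fibroblasts, 1 neural gene had both marks in WT and none did in Spen KO. H3K4me3 alone was common at them. In WT it was at 3 of 5 endoderm, 4 of 5 mesoderm, 4 of 4 neural and 4 of 5 fibroblast genes, and in Spen KO at 3, 4, 2 and 3 of them. The Spen TSS itself had H3K4me3 in both genotypes, which does not test the deletion.

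H3K9me3 is a mark of heterochromatin that SETDB1 and related methyltransferases deposit and that HP1 proteins bind. In mESCs it covers retrotransposons and the methylated allele of imprinting control regions, where KRAB zinc finger proteins such as ZFP57 recruit KAP1 and SETDB1 to DNA. H3K4me3 marks the start sites of active and CpG-rich genes, and H3K27Ac marks active promoters and enhancers. A promoter under H3K9me3 is usually without either mark.

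Sequences around the annotated TSS of 9 covered genes are given first, because covered TSSs fell into CpG-rich and CpG-poor kinds, described further on. Each run holds 150 bases before the TSS and 30 bases from it onward, in mm9 (NCBIM37), written 5′ to 3′ on the gene's strand, and the capitals mark CpG dinucleotides. Peg3, Plagl1, Zrsr1, Nnat and Mcts2 are imprinted, and Fkbp6 is a germline gene. Olfr1055, Zfp386 and Defa17 are CpG-poor examples of an olfactory receptor, a zinc finger gene and an alpha-defensin. The annotated TSS of Olfr1055 falls on the bases atg, so it may be a start codon and the run may not be a promoter. The Zfp386 TSS lies in sequence with many genomic copies, so it may not stand for zinc finger promoters.
Peg3 (chr7:6683103-6683282, minus strand): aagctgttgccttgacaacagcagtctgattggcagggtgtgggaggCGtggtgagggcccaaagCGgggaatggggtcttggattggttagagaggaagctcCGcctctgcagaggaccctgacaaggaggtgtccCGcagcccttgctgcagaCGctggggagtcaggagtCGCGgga
Plagl1 (chr10:12810347-12810526, plus strand): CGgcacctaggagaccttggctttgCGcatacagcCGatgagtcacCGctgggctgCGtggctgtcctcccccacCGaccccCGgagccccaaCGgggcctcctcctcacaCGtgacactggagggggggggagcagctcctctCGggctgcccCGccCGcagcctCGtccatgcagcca
Zrsr1 (chr11:22873065-22873244, plus strand): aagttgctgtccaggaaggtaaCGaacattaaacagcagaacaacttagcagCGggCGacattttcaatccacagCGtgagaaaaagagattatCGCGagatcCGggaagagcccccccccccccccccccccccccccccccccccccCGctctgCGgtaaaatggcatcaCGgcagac
Nnat (chr2:157385664-157385843, plus strand): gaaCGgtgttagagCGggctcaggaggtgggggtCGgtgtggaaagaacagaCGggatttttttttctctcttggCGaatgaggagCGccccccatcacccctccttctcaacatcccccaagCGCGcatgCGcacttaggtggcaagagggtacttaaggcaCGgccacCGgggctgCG
Mcts2 (chr2:152512734-152512913, plus strand): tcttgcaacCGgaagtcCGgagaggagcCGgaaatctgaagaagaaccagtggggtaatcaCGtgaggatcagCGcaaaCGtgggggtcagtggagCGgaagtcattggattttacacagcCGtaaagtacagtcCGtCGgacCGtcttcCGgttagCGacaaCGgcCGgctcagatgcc
Fkbp6 (chr5:135825866-135826045, minus strand): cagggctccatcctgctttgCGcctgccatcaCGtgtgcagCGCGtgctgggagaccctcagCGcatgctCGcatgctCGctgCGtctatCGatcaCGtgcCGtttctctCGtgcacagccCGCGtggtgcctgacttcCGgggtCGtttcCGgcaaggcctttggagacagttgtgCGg
Olfr1055 (chr2:86187892-86188071, minus strand): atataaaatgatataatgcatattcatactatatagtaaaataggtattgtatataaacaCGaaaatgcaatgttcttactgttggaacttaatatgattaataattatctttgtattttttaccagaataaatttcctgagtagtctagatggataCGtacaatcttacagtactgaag
Zfp386 (chr12:117280412-117280591, plus strand): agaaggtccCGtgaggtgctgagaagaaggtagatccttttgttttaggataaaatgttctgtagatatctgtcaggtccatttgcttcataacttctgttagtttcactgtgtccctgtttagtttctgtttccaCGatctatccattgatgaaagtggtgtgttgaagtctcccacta
Defa17 (chr8:22766102-22766281, plus strand): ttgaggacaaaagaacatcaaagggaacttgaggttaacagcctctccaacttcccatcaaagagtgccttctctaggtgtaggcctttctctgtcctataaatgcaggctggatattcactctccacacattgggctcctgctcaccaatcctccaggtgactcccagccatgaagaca

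The 3 CpG-poor runs held 2, 2 and 0 CpGs, while the imprinted ones held 7 to 15 and Fkbp6 held 18. None of the 3 CpG-poor genes had H3K4me3 or H3K27Ac in either genotype, and all 3 remained under H3K9me3 in Spen KO. Of the 6 CpG-rich genes, Zrsr1, Nnat and Mcts2 lost the domain in Spen KO and Peg3, Plagl1 and Fkbp6 kept it.

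Covered promoters belonged mostly to predicted genes and to tandem gene families that are expressed in differentiated tissues. Genes with only a clone name or a predicted-gene number made up 397 of the 963 covered TSSs, which was 11.6% (10.5 to 12.7) of the 3435 such genes. Named genes outside these families had 282 of 14402 TSSs covered (1.96%, 1.74 to 2.20). Of 26 named families, 21 had a covered share above the 4.50% of all genes. For several of the 21 with few covered genes the interval reached below 4.50%. Examples were germline genes (3.77 to 16.6), genes of the 2-cell embryo (2.80 to 21.3) and ribosomal protein names (2.86 to 10.7). The interval of olfactory receptors (6.59 to 9.80) lay above it. These shares describe 1 list and were not tested.

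Alpha- and beta-defensins, which are antimicrobial peptides of gut and epithelia, had the highest covered share among families of 20 genes or more under this width limit, with 20 of 53 TSSs (37.7%, 25.9 to 51.2). Alpha-defensins accounted for 10 of these among 12 Defa genes, and beta-defensins for 10 among 41 Defb genes. Defb7 lay under a domain of score 205 and Defa17 under a domain of score 166, and both stayed covered in Spen KO. The longest run of neighbouring covered TSSs was the defensin cluster on chromosome 8, where 13 of 16 protein-coding TSSs between 22084427 and 22466699 were covered by 9 domains, and 12 of the 13 remained covered in Spen KO. The order of families depended on the choice of domains. Without a width limit 65.9% of major urinary proteins and lipocalins were covered against 39.6% of defensins, and with the stronger 50% of domains 11.9% of imprinted genes against 11.3% of defensins. A second run on chromosome 6 held 8 of 11 TSSs, among them Gimap1, Gimap7 and Gimap3, GTPases of lymphocytes, and all 8 were kept.

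Major urinary proteins, lipocalins and androgen-binding proteins, carriers of pheromones, were covered at 15 of 44 TSSs (34.1%, 21.9 to 48.9), and a further 14 lay under domains of 25000 bp or more. Among the Mup genes 8 of 21 were under narrow domains and 9 under wide ones. Cytochrome P450 genes, which oxidise steroids and drugs mainly in liver, were covered at 24 of 98 TSSs (24.5%, 17.0 to 33.9). Tandem groups differed, with 5 of 9 Cyp2d, 5 of 9 Cyp3a, 3 of 4 Cyp2a and 2 of 5 Cyp2b genes covered, but 3 of 15 Cyp2c, 1 of 8 Cyp2j, 1 of 8 Cyp4f and 1 of 6 Cyp4a genes. In Spen KO 17 of the 24 stayed covered (70.8%, 50.8 to 85.1), close to the 69.4% of all members. By group these were all 5 Cyp2d and all 3 Cyp2a TSSs, 3 of the 5 Cyp3a TSSs and 1 of the 3 Cyp2c TSSs, among others. The groups are too small to compare.

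Serpins, serine protease inhibitors, had 10 of 59 TSSs covered (17.0%, 9.48 to 28.5). Of these 7 were Serpina genes, and another 7 Serpina genes were under wide domains. Pregnancy-specific glycoproteins and CEACAM genes, which are expressed in the placenta and epithelia, accounted for all 8 covered TSSs of a list of 53, with 5 Psg and 3 Ceacam genes, while none of the 25 prolactin family genes of that list was covered. Keratins and keratin-associated proteins had 11 of 100 covered, under weak domains with a median score of 62.3 against 129 for all member domains.

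Chemosensory receptors formed the largest named group. Olfactory receptors, the odour receptors of the nose, had 89 of 1106 TSSs covered (8.05%, 6.59 to 9.80), spread over 15 chromosomes and 89 domains. The Olfr1055 gene record began at the bases atg, so TSSs of this family may in part be coding starts. The other records were not checked for this. Olfr1055 and Olfr784 had the highest scores among them (284 and 268). Vomeronasal receptors had 25 of 330 TSSs under narrow domains and 45 under wide ones, and 44 of the latter were Vmn1r genes. Only 1 covered olfactory receptor and 1 covered vomeronasal receptor had H3K4me3 nearby in WT, but few of either family had it anywhere (1.09% and 0.606% of all members of the 2 families).

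Zinc finger genes of the Zfp, Zscan and Zkscan names, many of which encode KRAB repressors, were covered at 12 of 440 TSSs (2.73%), below the share of all genes. When every annotated transcript start was used in place of the 5′ end of the gene, 30 of the 440 were covered (6.82%), which was above the 5.61% of all genes counted that way. Zfp386 had the strongest of these domains (score 261), followed by Zfp317 (222), and 10 of the 12 were kept in Spen KO. Genes of the 2-cell embryo, a stage with its own programme of retrotransposon-driven transcripts, had 3 of 37 TSSs covered (8.11%, 2.80 to 21.3). These were Dux, a homeobox activator of that programme, Zscan4b and Dub1, and all 3 were kept in Spen KO. Of 8 covered predicted genes that RefSeq later named Pramel, another gene family of that stage, 4 were kept and 4 were not. The Dux domain (chr10:57683401-57704400, score 151) held 4 TSSs, the most of any member. Dux had an H3K4me3 peak in both genotypes, with library values of 12.5 and 7.73 in WT, against 19.6 and 21.8 in the Spen KO clone.

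No covered TSS was found among 40 Hox genes, 65 histone genes or 24 clustered protocadherin genes. A count of 0 allowed shares of up to 8.76%, 5.58% and 13.8%, respectively. Hox and histone genes had H3K4me3 at 90% and 100% of their TSSs. Ribosomal protein names accounted for 8 covered TSSs of 143, but 7 of the 8 symbols were marked as pseudogenes (-ps).

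**Figure D1:**
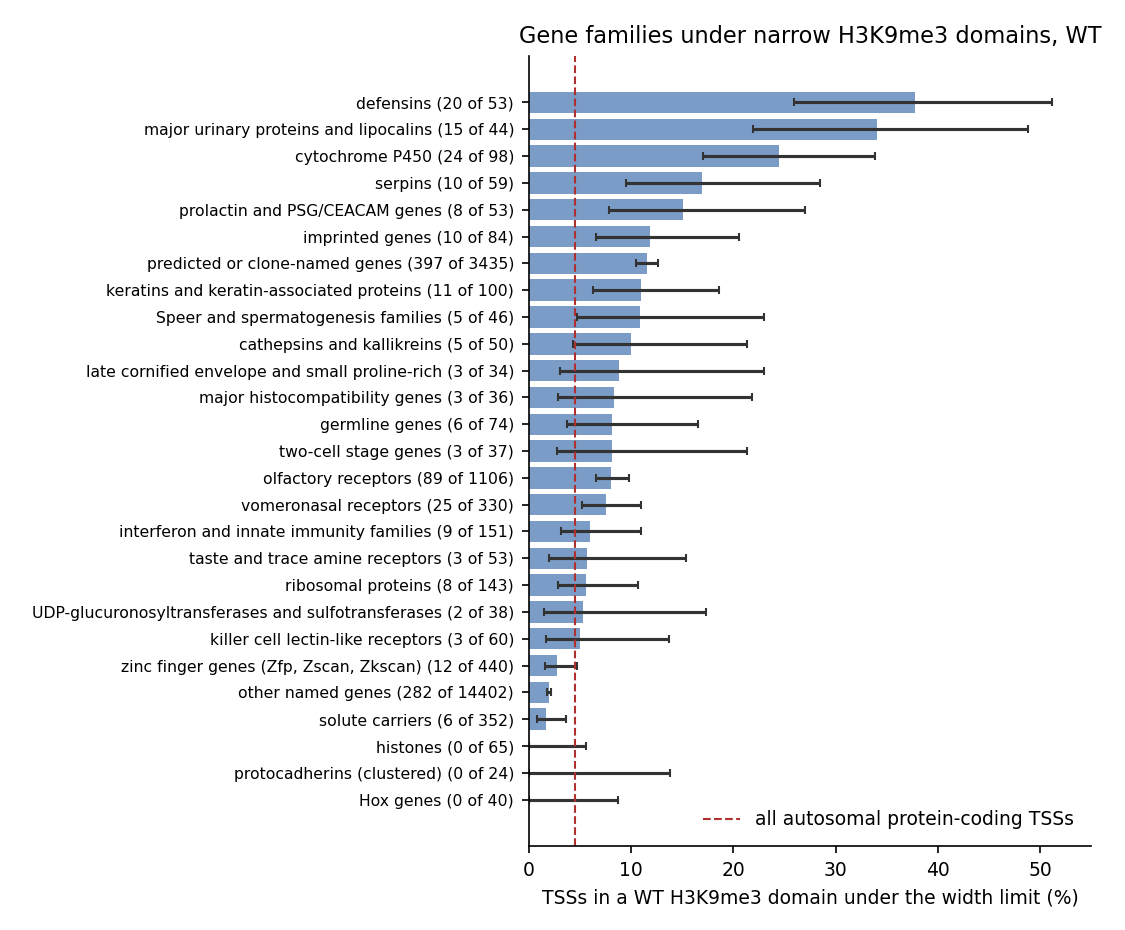
Share of each gene family's autosomal TSSs (x axis, %) that lay in a WT H3K9me3 domain under 25000 bp, for groups with 20 or more TSSs, with 95% Wilson intervals as error bars. The dashed line marks the 4.50% of all TSSs; defensins reached 37.7% and Hox, histone and clustered protocadherin genes were at 0.

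Annotation class differed as well. Of the 963 covered genes 844 were matched to a RefSeq record by symbol or identifier (GRCm38.p6 tables, used for names and classes only), and RefSeq classed 105 of these as pseudogenes (12.4%), against 2.95% of all matched genes. Among the covered predicted or clone-named genes that matched, the share was 29.7%. RefSeq gave 80 of the covered predicted genes a later name, including 8 Pramel genes, 4 defensins, 3 zinc finger genes and 3 vomeronasal receptors. Those genes were counted here as predicted genes.

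Domain strength is given by the score in the list, which fitted 100 times a log2 ratio of ChIP over input but whose definition was not stated. Member domains had a median score of 129 (range 6.23 to 345) and a median width of 7600 bp. The 48458 autosomal domains under 25000 bp without a protein-coding TSS had a higher median score of 145 but were narrower, with a median of 5200 bp. The 201 wide domains over a TSS had a median score of 189. The member scores divided into quartiles at 85.7, 129 and 183.

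The strongest member domain lay over Igkv4-71, an immunoglobulin kappa variable segment, with a score of 345. Flg2, a structural protein of the skin barrier, followed at 311, and then the predicted gene Gm10338 at 288, Olfr1055 at 284 and Gm4767 at 278. The next domains held pairs of TSSs. One lay over 3110070M22Rik and Gm7120 (score 273), the other over Ept1, an ethanolaminephosphotransferase of phospholipid synthesis, and Gm5299 (271). Olfr784 (268) completed the 8 strongest. None of these 10 genes had H3K27Ac in WT, and only 3110070M22Rik and Ept1, both with CpG-rich start sites, had H3K4me3.

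Just inside the width limit were the domains over Guca2a, an intestinal peptide hormone (24600 bp, score 185), Olfr514 (24400 bp, 229) and Rdh19, a retinol dehydrogenase (24400 bp, 189). Just outside were those over a predicted gene (25000 bp, 172), Ccdc110 (25000 bp, 238) and F13a1, a coagulation factor subunit (25200 bp, 215). None of these 6 had H3K4me3 or H3K27Ac in WT.

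Most member domains (870) held 1 TSS, 40 held 2 and 4 held 3 or more. A covered TSS lay at a median of 1625 bp from the nearer end of its domain, and 324 of the 963 were within 1000 bp of an end. Covered genes were short as annotated, with a median record length of 4459 bp against 15535 bp over all genes, and 422 of them lay wholly inside their domain. In 192, under 10% of the gene was inside. Another covered TSS lay within 100 kb of 397 of the 963.

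Covered promoters were poor in CpG. In the 300 bases centred on the TSS the median ratio of observed to expected CpG was 0.197, against 0.608 over all autosomal protein-coding TSSs, and the ratio was at least 0.6 at 68 covered TSSs (7.06%, 5.61 to 8.86) against 50.5% of all. Repeated sequence was more common. At least 50% of the 31-base words of the window occurred in 2 or more genomic copies at 300 covered TSSs (31.2%, 28.3 to 34.2) against 7.37% of all TSSs, and in 10 or more copies at 10.6% against 2.00%. The wide domains were more extreme, with 63.0% of their TSSs repeated. Which alignments the H3K9me3 list was made from, with unique or with randomly placed multiple reads, was not stated, so coverage at near-identical gene copies is uncertain.

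The hexamer TGCCGC, which ZFP57 recognises when it is methylated, was searched on both strands of the 300-base windows. It was present at 61 covered TSSs (6.33%) and at 17.7% of all TSSs. The E-box CACGTG was present at 3.53% of covered TSSs and at 7.30% of all TSSs. Both motifs hold a CpG, and covered windows had a median of 3 CpGs against 15 over all TSSs.

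Active marks were rare at covered TSSs in WT. An H3K4me3 peak lay within 1000 bp of 61 of the 963 TSSs (6.33%, 4.96 to 8.05), against 64.0% of all autosomal protein-coding TSSs and 67.7% of the 20144 under no WT domain. H3K27Ac was present at 14 covered TSSs (1.45%, 0.868 to 2.43), against 18.8% of all and 19.9% of uncovered TSSs. Both marks were present at 11, H3K4me3 alone at 50 and H3K27Ac alone at 3, leaving 899 with neither. The 311 TSSs under wide domains had similar shares, 3.54% (1.99 to 6.22) with H3K4me3 and 2.25% (1.09 to 4.57) with H3K27Ac.

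**Figure D2:**
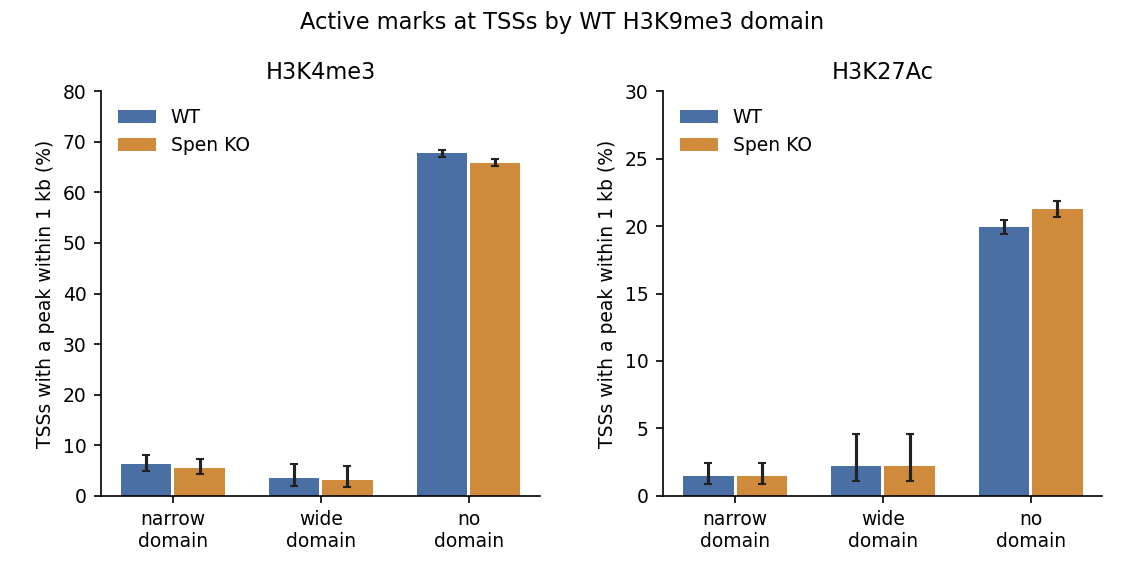
Share of TSSs (y axis, %) with an H3K4me3 peak (left) or H3K27Ac peak (right) within 1000 bp in WT and Spen KO, for TSSs in narrow H3K9me3 domains (n = 963), in wide domains (n = 311) and in no domain (n = 20144) of the WT list. Error bars are 95% Wilson intervals; covered TSSs had H3K4me3 at 6.33% in WT and 5.61% in Spen KO while uncovered ones had it at 67.7% in WT and 65.9% in Spen KO.

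The difference remained among CpG-rich TSSs, although the sets compared may be unlike in annotation. Of the 68 covered TSSs with a CpG ratio of at least 0.6, H3K4me3 was present at 22 (32.4%, 22.4 to 44.2), against 97.8% of 10729 uncovered TSSs with the same ratio. Of the 68, 38 were predicted or clone-named genes. RefSeq classed 29.7% of the matched covered genes of that class as pseudogenes. The comparison was not split by annotation class. Among CpG-poor covered TSSs it was present at 39 of 895 (4.36%). The peaks were also weaker and shorter. The median peak value was 21.1 at covered TSSs and 43.2 at uncovered ones, in the list's own unit, and the median widths were 1205 and 2743 bp. Of the 61 peaks, 53 had at least 50% of their bases inside the H3K9me3 domain, so most of these TSSs were inside both lists at once. Lists from many cells do not say whether both marks were on the same copy in the same cells.

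Of the 11 genes with both marks, 4 had only a clone name or predicted-gene number. Among the other 7 the highest H3K4me3 values were those of Gpa33, an intestinal surface antigen, Angptl6, a secreted angiopoietin-like protein, Aen, an apoptosis nuclease, Dppa5b, a relative of an mESC gene, and Sh2d4b, an adaptor protein. Gpa33 had H3K4me3 values of 40.6 and 40.1 in the 2 WT libraries and 14.0 and 11.4 in the Spen KO libraries. Angptl6 had 35.0 and 23.5 in WT, against 28.9 and 26.4 in Spen KO. Angptl6 and Gpa33 kept H3K9me3 and both active marks in Spen KO, whereas Aen kept H3K9me3 and H3K4me3 without H3K27Ac. The window of Dppa5b consisted wholly of repeated words, so reads from its paralogs could not be separated. Sh2d4b lost both active marks and its H3K9me3 domain in Spen KO, with H3K4me3 values of 14.6 and 27.6 in WT and no peak in Spen KO. The 4 without a proper name, 2610036A22Rik, Gm13138, Gm13212 and Gm13139, all lie on chromosome 4 and all had a higher mean value than Sh2d4b, with the highest of all 11 at 2610036A22Rik (51.6 and 46.0 in WT). None of the 4 kept H3K9me3 at the TSS, all kept H3K4me3, and H3K27Ac remained at Gm13138 alone. At least 50% of the words in their windows were repeated. These 4 were named after their values were seen.

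In Spen KO, 668 of the 963 covered TSSs lay in an H3K9me3 domain of any width (69.4%, 66.4 to 72.2). The mirror comparison gave a similar share, since of 1023 TSSs under narrow Spen KO domains 754 lay in a WT domain (73.7%, 70.9 to 76.3). The remaining 269 were under a Spen KO domain only. These 269 had a median distance of 4701 bp to the nearest WT domain and included 91 predicted or clone-named genes and 46 olfactory receptors, and 15 of them had H3K4me3 in WT. Each genotype therefore had covered TSSs that the other lacked, 295 in WT and 269 in Spen KO.

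Coverage of a domain's centre allowed a comparison with domains away from promoters. The centre base was in a Spen KO domain for 739 of 914 member domains (80.9%, 78.2 to 83.3) and for 78.5% of domains without a TSS. The lower share at the TSS went with its place in the domain. It was 53.1% (47.7 to 58.5) for TSSs within 1000 bp of an end, 73.0% (68.4 to 77.2) from there to under 3000 bp and 84.8% (79.8 to 88.7) at 3000 bp or more. The base at the same distance from the opposite end of the domain was covered in 71.0% (68.1 to 73.8), a share whose interval overlapped that of the TSS base. Of the 295 TSSs not kept, 216 had a WT domain that overlapped a Spen KO domain elsewhere, and 128 lay within 1000 bp of a Spen KO domain. Among kept TSSs the Spen KO domain was narrower than the WT domain in 433 and wider in 206, and the median width was 8400 bp for the WT domains and 6600 bp for their Spen KO counterparts.

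Kept shares were higher at higher WT scores. From the lowest to the highest quartile the TSS base was kept in 58.5%, 68.8%, 76.2% and 73.7%, and the centre base in 65.9%, 78.1%, 86.8% and 92.6%. Domains without a TSS in the same score ranges gave 65.6%, 73.5%, 79.1% and 89.9%. In the highest quartile the TSS share was thus lower than the centre share of the same domains, with intervals of 67.8 to 78.8 and 88.4 to 95.3. The base at the same distance from the opposite end was kept in 76.5% (70.8 to 81.4) of that quartile, an interval that overlapped that of the TSS base.

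**Figure D3:**
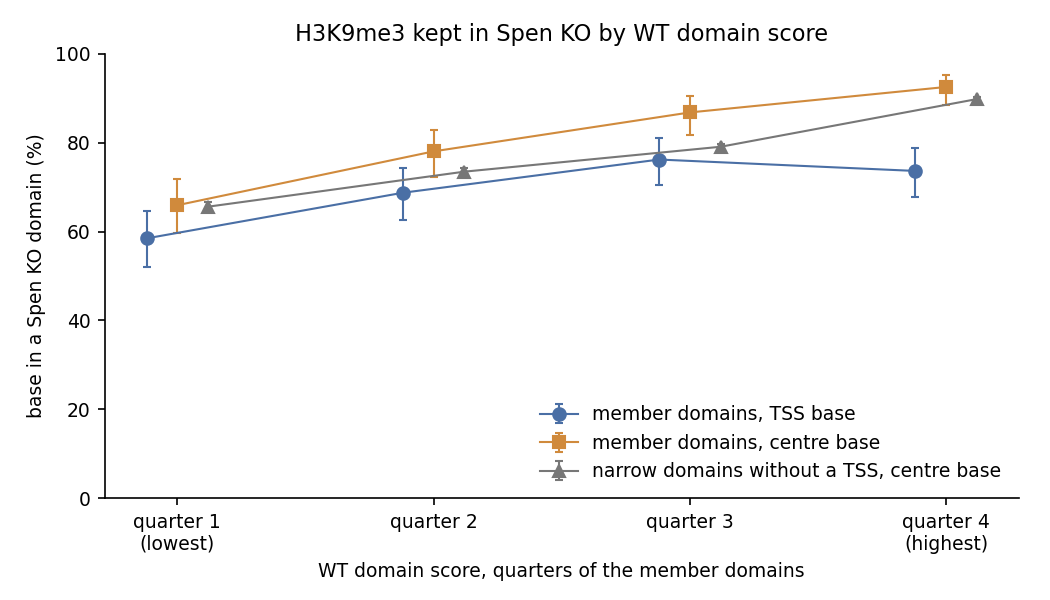
Share of bases (y axis, %) in a Spen KO H3K9me3 domain by quartile of WT domain score (x axis), for the TSS base and the centre base of member domains and the centre base of narrow domains without a TSS, with 95% Wilson intervals. The centre of member domains was kept in 65.9% of the lowest and 92.6% of the highest quartile, and the TSS base in 73.7% of the highest.

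Kept shares differed between chromosomes. On the 13 autosomes whose Spen KO domains covered 80% to 125% of the WT bases, 544 of 750 TSSs were kept (72.5%, 69.2 to 75.6), and the centres of domains without a TSS in 82.3%. On the 5 autosomes below that range 109 of 192 TSSs were kept (56.8%, 49.7 to 63.6), and the centres in 65.5%. On chromosome 19, above it, 15 of 21 TSSs were kept (71.4%) and 92.3% of the centres. The order of single chromosomes did not follow their covered bases, since chromosome 12 kept 70.0% of its TSSs at 67.4% of the WT bases, and chromosomes 2 and 9 kept 59.6% and 60.5% at 92.3% and 101%. The lowest was chromosome 4, where 23 of 54 TSSs were kept (42.6%), against 72.1% of the centres of its domains without a TSS. The part of chromosome-wide coverage in the loss at promoters was not tested beyond this split.

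The kept share also differed with the marks at the TSS. Of the 61 with H3K4me3 in WT 22 were kept (36.1%, 25.2 to 48.6), against 646 of 902 without it (71.6%, 68.6 to 74.5). TSSs with H3K4me3 lay nearer to the domain's end (median 1103 bp against 1652 bp), and the base at the same distance from the opposite end of their domains was kept in 52.5% (40.2 to 64.5). CpG-rich covered TSSs were kept in 55.9% (44.1 to 67.1) and CpG-poor ones in 70.4% (67.3 to 73.3). Repeated windows were kept in 75.7% and others in 66.5%.

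The strongest domains whose TSS was not kept were of several kinds. Ept1 lay only 121 bp outside a Spen KO domain that covered 97.6% of the WT domain, and 3110070M22Rik lay 811 bp outside. Both had H3K4me3 in the 2 genotypes. Ehbp1, an endocytic adaptor, lay 495 bp outside, and the receptor genes Olfr657 and Olfr58 lay 990 and 2727 bp outside, with 51.2% and 84.5% of their WT domains still covered. Stard3nl, a cholesterol-binding protein of late endosomes, differed, since no base of its 7200 bp domain (score 259.5) was covered and the nearest Spen KO domain was 28780 bp away. Its H3K4me3 values were 19.6 and 22.4 in WT, against 41.5 and 17.7 in Spen KO, so the Spen KO libraries lay on both sides of the WT values.

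Complete loss was uncommon among strong domains. No base was covered in Spen KO in 79 of 914 member domains (8.64%), against 12.7% of narrow domains without a TSS. In the highest score quartile it was 5 of 229 (2.18%, 0.936 to 5.01), against 4.03% of the domains without a TSS in that score range. The 5 were those over Stard3nl, Zrsr1, Nnat, Vmn1r1 and Mcts2. Of these 5 genes 3 are imprinted.

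Imprinted genes, which are expressed from 1 parental allele under the control of DNA methylation set in the germline, had 10 of 84 TSSs covered (11.9%, 6.60 to 20.5). With every annotated transcript start in place of the gene's 5′ end, 15 of the 84 were covered (17.9%), against 5.61% of all genes. The 10 genes covered at the 5′ end were Sgce, Peg10, Zrsr1, Peg3, Nnat, Impact, Mcts2, Plagl1, Igf2 and Nap1l5. Their domain scores ran from 199 to 265 with a median of 219, so all 10 lay in the highest quartile. For the same reason all 10 remained when only the stronger 50% of WT domains was used, which is no separate result. Under that limit, which restates the domain scores, 6 of the 20 defensins and 6 of the 24 cytochrome P450 genes remained. So did 1 of the 15 major urinary proteins and lipocalins and none of the 11 keratins. The imprinted promoters were also CpG-rich, with a median CpG ratio of 0.700 against 0.195 for the other members, and they made up 8 of the 68 CpG-rich members. The exceptions were Igf2 (0.0966) and Impact (0.380). TGCCGC was found in the windows of 6 of the 10. The list of imprinted genes was fixed from general knowledge with earlier results of these data known.

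**Figure D4:**
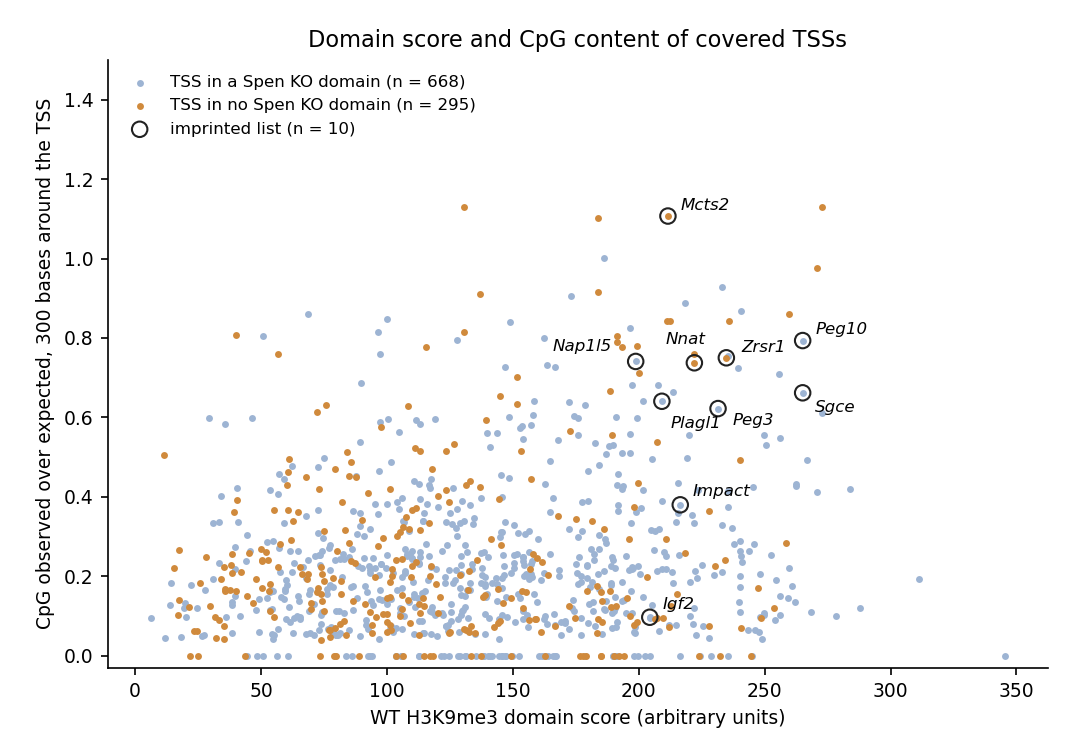
WT H3K9me3 domain score (x axis, the list's unit) against the CpG observed over expected ratio of the 300 bases around the TSS (y axis), 1 point for each of the 963 covered TSSs, blue where the TSS lay in a Spen KO domain and orange where it did not. Open circles mark the 10 imprinted genes, whose scores lay between 199 and 265.

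Of the 10 imprinted TSSs 7 stayed covered in Spen KO (70.0%, 39.7 to 89.2), beside 69.4% of all members. Sgce, epsilon-sarcoglycan, and Peg10, a retrotransposon-derived gene, are transcribed divergently from 1 shared domain that was 96.0% covered in Spen KO. Peg3 and Plagl1, both zinc finger regulators of growth, had 94.6% and 89.3% of their domains covered, and Nap1l5, a nucleosome assembly protein gene inside Herc3, had 81.1%. Impact, a regulator of translation, had 80.3% and Igf2, a fetal growth factor, 73.3%. None of these 7 had H3K4me3 or H3K27Ac at the TSS in either genotype.

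Zrsr1, Nnat and Mcts2 had no base of their domains covered in Spen KO. Zrsr1, a splicing-factor retrogene in an intron of Commd1, had a WT domain of 13000 bp (chr11:22865601-22878600, score 235), and the nearest Spen KO domain was 61986 bp away. It had no active peak in WT and an H3K4me3 peak in Spen KO with library values of 65.3 and 41.7, together with an H3K27Ac peak at 32.9 and 35.8. Both peaks ended less than 100 bp before the TSS and did not hold the TSS base itself. Nnat, neuronatin, a small membrane protein inside Blcap, had a domain of 11400 bp (chr2:157379601-157391000, score 222), and a Spen KO domain lay 15387 bp away. It had no active peak in WT and an H3K4me3 peak over the TSS in Spen KO with values of 40.0 and 33.0. Mcts2, a translation-factor retrogene in H13, had a domain of 10000 bp (chr2:152506401-152516400, score 212), and the nearest Spen KO domain was 39684 bp away. Its H3K4me3 values were 10.3 and 7.84 in WT, against 37.8 and 39.2 in Spen KO, with no overlap between the genotypes.

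The 3 genes were thus alike in full loss of the domain and in new or higher H3K4me3. All 3 lie within other genes, as does Nap1l5, which kept its domain. None of the 4 host TSSs was under H3K9me3 in WT. DNA methylation and the parental origin of the alleles were not analysed here, and with 1 knockout clone a change of imprint in that clone and an effect of Spen cannot be told apart.

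Over all members, the number of TSSs with an active mark was similar in the genotypes. In Spen KO H3K4me3 was present at 54 covered TSSs (5.61%, 4.32 to 7.25), against 62.3% of all TSSs, and H3K27Ac at 14 (1.45%), against 20.1%. Changes were counted among the TSSs at which they could occur. Of the 952 covered TSSs that lacked at least 1 of the marks in WT, 11 had a new mark in Spen KO (1.16%, 0.646 to 2.06), against 5.50% of all TSSs lacking one. The sets were unlike, since 899 of the 963 covered TSSs had neither mark in WT, while 64.0% of all TSSs had H3K4me3. Over all TSSs 871 of the 960 with a gain gained H3K27Ac. Of the 64 covered TSSs with either mark in WT, 18 lost one (28.1%, 18.6 to 40.1), against 7.68% of all TSSs with either. For H3K4me3 alone, 7 of 902 covered TSSs without it gained a peak (0.776%, 0.376 to 1.59), an interval that held the 1.25% of all. Of the 61 with it 14 lost the peak (23.0%, 14.2 to 34.9), against 3.45% of all. Marked covered TSSs thus lost peaks more often than marked TSSs at large by these intervals, and their WT peaks were also weaker, as given above. The part of peak strength in the difference was not tested.

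Gains were found with and without H3K9me3 loss, at 6 of 668 kept TSSs (0.898%, 0.412 to 1.95) and at 5 of 295 lost ones (1.70%, 0.726 to 3.91). Of all 21418 TSSs, 4.48% gained a mark. Besides Zrsr1 and Nnat, the genes with the highest domain scores were Fkbp6, Pole4, 1700093K21Rik and Gm4981. Fkbp6, a co-chaperone of meiosis and of the piRNA pathway, had H3K4me3 at 13.9 in both Spen KO libraries while its TSS stayed under H3K9me3. Pole4, a subunit of DNA polymerase epsilon, gained H3K27Ac at 24.8 and 24.6 and stayed under H3K9me3. Gm4981 lies in the Dux domain and gained a weak H3K4me3 peak (13.4 and 11.6). The values of Zrsr1 and Nnat were above those of every other TSS that gained H3K4me3 from none, which ran from 8.77 to 15.02.

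Germline genes of the fixed list had 6 of 74 TSSs covered (8.11%, 3.77 to 16.6), and all 6 were kept in Spen KO. These were Fkbp6 (score 186), Dpep3, a testis dipeptidase (179), the testis tubulins Tuba3a (144) and Tuba3b (87.7), Wfdc15a, a protease inhibitor family gene (137), and Syce3, a synaptonemal complex protein (94.3). Tuba3a, like Fkbp6, gained H3K4me3 in Spen KO, with values of 15.02 and 8.77. Aurkc, a meiotic kinase outside the list and named after its values were seen, gained H3K4me3 (11.7 and 8.77) and lost its domain.

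Losses of a mark included Eps8l1, an actin regulator, with H3K4me3 at 19.5 and 28.9 in WT and no peak in Spen KO, although its TSS stayed under H3K9me3. Lhcgr, the luteinizing hormone receptor, lost an H3K4me3 peak of 13.6 and 22.4, and Gstm2, a glutathione transferase, lost one of 10.3 and 9.32. Both stayed under H3K9me3. These 3 genes were named after their values were seen.

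Oct4, a pluripotency transcription factor, was the only target with a list for each library. Peaks lay within 1000 bp of 4 and 10 covered TSSs in the WT libraries and of 4 and 4 in the Spen KO libraries. The shares over all TSSs were 6.64% and 3.09% in WT, against 2.68% and 2.52% in Spen KO. The first WT library stood apart, with the fewest peaks (1806) and the highest share of TSSs. The WT libraries had a mean share of covered TSSs of 0.727% ± 0.441 (SD, n = 2), and the Spen KO libraries one of 0.415% ± 0 (SD, n = 2). The difference was -0.312 percentage points. Every library but the second WT one had 4 covered TSSs with a peak, so each assignment of libraries gave a difference of the same size. The two-sided exact permutation test could therefore give only p = 1.000, and it cannot decide whether the genotypes differed.

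In all, 14 covered TSSs had an Oct4 peak in at least 1 library, and 6 of the 14 were imprinted, Mcts2, Nnat, Nap1l5, Peg3, Plagl1 and Zrsr1. This count was noticed after the values were seen, and no share over all imprinted genes was set beside it. All 6 peaks were in the second WT library, and 2 were also in the first. In Spen KO, Plagl1 had a peak in both libraries and Nap1l5 in the second. Peg3, which kept its H3K9me3 domain, had none, and neither did Zrsr1, Nnat or Mcts2, which lost it. The remaining 8 included Hps3, a gene of lysosome-related organelles, with a peak in 3 of 4 libraries, and Eif4e1b, an oocyte translation factor, which had peaks in each Spen KO library and in neither WT library.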

How the data were processed

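The data were 10 ChIP-seq domain and peak lists made from 16 ChIP libraries of HATX mESCs, WT and Spen KO (clone 2), with groups taken from the sample labels. According to the methods, the authors aligned read pairs to mm9 with Bowtie2, used Picard to drop duplicates, and ran MACS2 with input and a q-value limit of 0.01, keeping peaks of the 2 libraries at an IDR of 0.05 for histone marks; versions were not given in the sources used here. The deposited H3K9me3 lists instead held joined 200 bp windows with a p-value-like column (at most 0.05) and a score, and their caller was not given in the sources used here. The deposited H3K4me3 and H3K27Ac lists gave a peak value for each library in an unstated unit. The deposited Oct4 lists, 1 for each library, gave fold enrichment, -log10 p and -log10 q. Read depth was unknown. In 10 H3K9me3 domains the last window ran past the end of the chromosome, among them the member domain over 3110070M22Rik and Gm7120.

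TSSs were the 5′ ends of autosomal protein-coding gene records. Overlaps, shares, Wilson 95% intervals and sequence features were computed in Python 3.11.15 with numpy 2.4.6, pandas 2.3.3, scipy 1.17.1 and pysam 0.24.0. The overlap code was tested on simulated intervals. A TSS had an active mark when a peak lay within 1000 bp, and was kept when its base lay in a Spen KO domain. The reference was not soft-masked, so the planned masked share was replaced by 31-base words counted in the genome. No test was made of the histone lists, with 1 list for each genotype and library values only at listed peaks. Oct4 was tested by a two-sided exact permutation test over libraries. Genes were named by rule: the 8 domains of highest score; 2 genes of each of the 10 families with most covered genes; the 5 genes with both active marks and the highest H3K4me3 values, clone-named and predicted genes left out; the 6 strongest domains not kept and the 6 strongest that gained a mark; 3 on each side of the width limit; and up to 8 imprinted and 8 germline genes. Further genes are named where a count is small. Members, gene lists and tests were chosen with earlier results of these data known. The promoter sequence of 1 covered gene is not reported here.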

Additional observations from a re-analysis of the deposited data

How the results depend on the processing

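Of 81 alternative values 54 were labelled the same as the main value and 27 moved. A share was the same within the interval of the main value, and a count within 1.5 times the main count. Oct4 differences were judged only by a change of sign, so 0 also passed as the same. The value with the replicate block was labelled the same without a check. A width limit of 10000 bp left 593 covered TSSs, and the stronger 50% of WT domains left 389. The share still covered in Spen KO was 64.8% and 75.8% under these limits, 82.7% when a Spen KO domain within 1000 bp sufficed, 53.5% with the Spen KO list cut to the length of the WT list, 31.3% with its stronger 50%, and 80.6% of domains when at least 50% of their bases had to be covered. Chosen after seeing the data, it was 80.9% at the domain's centre and 72.5% without the 6 autosomes of uneven coverage. H3K4me3 in WT was at 4.67% with peaks over the TSS base, at 10.5% within 5000 bp and at 2.70% with the stronger 50% of the list. H3K27Ac in WT was at 3.01% within 5000 bp, and H3K4me3 in Spen KO at 3.95% over the TSS base. Cutting the lists to equal length gave 15 TSSs with a gained and 15 with a lost mark. Of 30 family values 12 moved. The Oct4 difference ran from -0.623 to 0 percentage points when 1 library was left out, and 0 was the value without WT replicate 2. With the replicate number as a block it was -0.312, from pair differences of 0 and -0.623. The exact sign test left out the pair at 0 and so could give only p = 1.000. The shared numbers are only labels, with 2 pairs. No paired analysis was possible for the presence of histone marks because each genotype had 1 list made from both libraries, and the library values of listed peaks carry no replicate number and were not tested. Unknown depth limits how far the absence of a domain or peak can be read.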
